A study of Mus musculus with 12 samples.

Results

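The genes described here are 10 immediate early transcription factor genes of mouse: Fos, Fosb and Fosl2, Jun, Junb and Jund, Egr1, Egr2 and Egr3, and Nr4a1. They were taken by symbol from the 24028 genes of the deposited count tables, as named members of the AP-1, Egr and Nr4a families, a choice made with earlier results of these data known, and all 10 were found and passed the filter on low counts in both comparisons. RNA was sequenced from 12 bone marrow libraries of C57BL/6 mice, with 3 libraries in each of 4 groups. The iMLL-ENL total group held leukemic cells of total marrow from mice that carry the leukemia fusion MLL-ENL as a knock-in inducible by Doxycycline and were given Doxycycline until acute leukemia. Its comparison group, wt LSK, held marrow of control mice after Lin- depletion, from which cells were sorted by the surface markers c-kit and Sca-1, as stem and early progenitor cells. The labels do not say whether the control mice received Doxycycline. The B220 HIGH and B220 LOW groups were leukemic cells of iMLL-ENL mice sorted for high or low surface B220, a form of the protein encoded by Ptprc that is best known from B cells, so both groups carry the fusion and the Doxycycline treatment. Each genotype was represented by 3 animals. The labels tie no library to an animal, so p-values measure the spread between these libraries, which may in part be technical.

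Immediate early genes are switched on within minutes of a growth factor, cytokine or stress signal, without the need for new protein synthesis, mainly through MAP kinases and the factors SRF, ELK and CREB that already sit at their promoters. The Fos and Jun proteins pair through leucine zippers to form AP-1, the Egr proteins are zinc finger factors that bind GC-rich sites, and Nr4a1 encodes an orphan nuclear receptor. In the hematopoietic system Egr1 and members of the AP-1 family are known for roles in monocyte differentiation, and Egr1 and the Nr4a receptors also for restraining stem cell proliferation.

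The promoter windows of 5 genes are shown as examples of the short motifs through which such signals are known to act. They were picked because they hold such motifs, so their matches do not compare the 10 genes with other genes. RefSeq windows of GRCm38.p6, running from 250 bases before to 50 bases after an annotated start, were found for 8 of the 10 genes, and not for Egr1 and Egr3. In all there were 12 windows, and those of Jund and of the first annotated start of Egr2 held none of the motifs searched. The windows shown are Fos at chr12:85473640-85473939 on the plus strand, Jun at chr4:95052173-95052472 on the minus strand, Fosl2 at chr5:32136222-32136521 on the plus strand, Egr2 at chr10:67537619-67537918 on the plus strand and Nr4a1 at chr15:101266596-101266895 on the plus strand. The Egr2 window is one of several annotated starts. All are written 5′ to 3′ in the direction of transcription, and capitals mark matches to the core of the cyclic AMP response element (TGACG or its complement CGTCA), the AP-1-like octamer TGACATCA, the Egr site GCGNGGGCG and the CArG box bound by SRF.
Fos: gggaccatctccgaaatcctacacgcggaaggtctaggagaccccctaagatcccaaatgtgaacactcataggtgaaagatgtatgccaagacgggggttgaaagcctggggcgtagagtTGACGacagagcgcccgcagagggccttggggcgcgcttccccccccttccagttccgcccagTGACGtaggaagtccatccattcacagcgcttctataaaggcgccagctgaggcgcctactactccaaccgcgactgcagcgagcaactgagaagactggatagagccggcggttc
Jun: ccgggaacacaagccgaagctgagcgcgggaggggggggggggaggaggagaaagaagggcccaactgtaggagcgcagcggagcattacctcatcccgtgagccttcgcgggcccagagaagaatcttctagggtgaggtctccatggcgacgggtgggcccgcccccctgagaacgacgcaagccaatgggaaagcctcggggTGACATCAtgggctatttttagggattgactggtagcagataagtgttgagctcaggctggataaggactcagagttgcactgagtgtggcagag
Fosl2: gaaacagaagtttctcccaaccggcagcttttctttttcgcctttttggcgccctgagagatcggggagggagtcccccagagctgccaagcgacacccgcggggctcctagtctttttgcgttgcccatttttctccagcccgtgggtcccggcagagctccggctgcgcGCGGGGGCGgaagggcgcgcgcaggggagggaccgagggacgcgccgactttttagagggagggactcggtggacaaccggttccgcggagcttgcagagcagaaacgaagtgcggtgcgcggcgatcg
Egr2: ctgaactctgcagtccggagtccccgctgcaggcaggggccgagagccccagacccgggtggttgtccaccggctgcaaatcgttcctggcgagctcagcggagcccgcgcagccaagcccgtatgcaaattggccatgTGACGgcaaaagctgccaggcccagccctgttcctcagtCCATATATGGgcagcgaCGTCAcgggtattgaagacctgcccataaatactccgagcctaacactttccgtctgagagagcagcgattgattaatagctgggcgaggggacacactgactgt
Nr4a1: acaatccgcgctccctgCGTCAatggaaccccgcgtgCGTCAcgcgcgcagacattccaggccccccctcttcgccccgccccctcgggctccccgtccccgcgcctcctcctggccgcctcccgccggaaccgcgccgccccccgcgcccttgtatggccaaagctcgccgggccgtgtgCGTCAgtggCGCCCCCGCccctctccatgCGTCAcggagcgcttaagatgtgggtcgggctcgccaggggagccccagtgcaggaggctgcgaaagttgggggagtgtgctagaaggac

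The Fos window held the TGACG core at -129 and -66 from the start, counted to the first base of the match, and a TATA box, TATAAA on the sense strand, at -33. The Jun window held TGACATCA at -45. The Fosl2 window held an Egr site at -79, and the Nr4a1 window held an Egr site at -60 among CGTCA matches at -233, -213, -69 and -40. The Egr2 window held a CArG box at -72, between TGACG at -111 and CGTCA at -55. Over all 32851 windows of this length, the TGACG core occurred in 20.8%, the octamer in 3.62%, the Egr site in 5.55%, the CArG box in 1.63%, all on either strand, and TATAAA on the sense strand in 8.32%. The AP-1 site TGANTCA, held by 7.81% of all windows, the full element TGACGTCA, held by 1.79% and containing the TGACG core, and the Nr4a monomer site AAAGGTCA, held by 1.51%, were also searched on both strands and were not found in these 5 windows. A match describes letters in the window and was not read as a bound site.

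**Figure D1:**
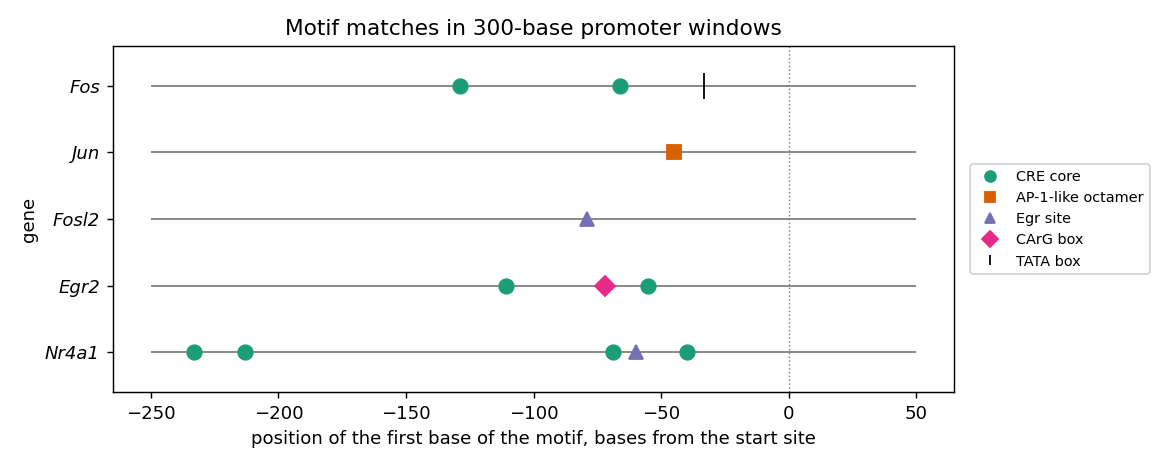
Positions of motif matches in the 5 promoter windows, in bases from the annotated start site (dotted line at 0). Each symbol is the first base of a match, with CRE core standing for the cyclic AMP response element core, and the Nr4a1 window shows 4 CRE cores around an Egr site at -60.

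Library totals ran from 18001563 to 22706882 counts in iMLL-ENL total and wt LSK and from 10921521 to 20069503 in the B220 fractions, with B220 HIGH replicate 1 the smallest. The sort of the control cells was visible in Kit, which encodes the c-kit receptor, at 88.3 to 151 CPM (counts scaled to the same library total) in iMLL-ENL total and 1050 to 1350 CPM in wt LSK, and in Ly6a, which encodes Sca-1, at 1.5 to 2.22 CPM in iMLL-ENL total and 32.5 to 82.1 CPM in wt LSK. Ptprc was at 534, 600 and 553 CPM in B220 HIGH replicates 1 to 3 and 610, 241 and 431 CPM in B220 LOW replicates 1 to 3. These are counts of the whole gene, so they do not check the B220 sort.

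Per kilobase of the deposited gene width, Fos had the highest mean level of the 10 genes in iMLL-ENL total, at 317 ± 133 CPM per kb (SD, n = 3), and also in wt LSK, at 664 ± 362 CPM per kb (SD, n = 3). In iMLL-ENL total it was followed by Fosb at 94.0 ± 97.9, Jun at 92.5 ± 28.5, Egr1 at 68.8 ± 53.1 and Fosl2 at 26.9 ± 15.5 CPM per kb, and in wt LSK by Egr1 at 457 ± 305, Jun at 282 ± 122, Fosb at 145 ± 72.1 and Nr4a1 at 51.4 ± 45.1 CPM per kb (SD, n = 3 each). Egr1 led in B220 HIGH at 61.5 ± 39.2 CPM per kb, ahead of Fos at 29.7 ± 25.5, while in B220 LOW Fos stood at 17.2 ± 16.2 and Egr1 at 12.1 ± 11 CPM per kb (SD, n = 3 each). The lower end of the order held Egr2 and Egr3 in iMLL-ENL total, at 3.25 ± 3.26 and 1.63 ± 1.69 CPM per kb, and in wt LSK, at 1.72 ± 1.53 and 5.54 ± 5.42 CPM per kb (SD, n = 3 each). The ranges of neighbours in this order overlapped in all 4 groups, except between Egr2 and Egr3 in B220 LOW, where Egr3 reached at most 0.0163 CPM per kb and Egr2 was at 0.177 or above.

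**Figure D2:**
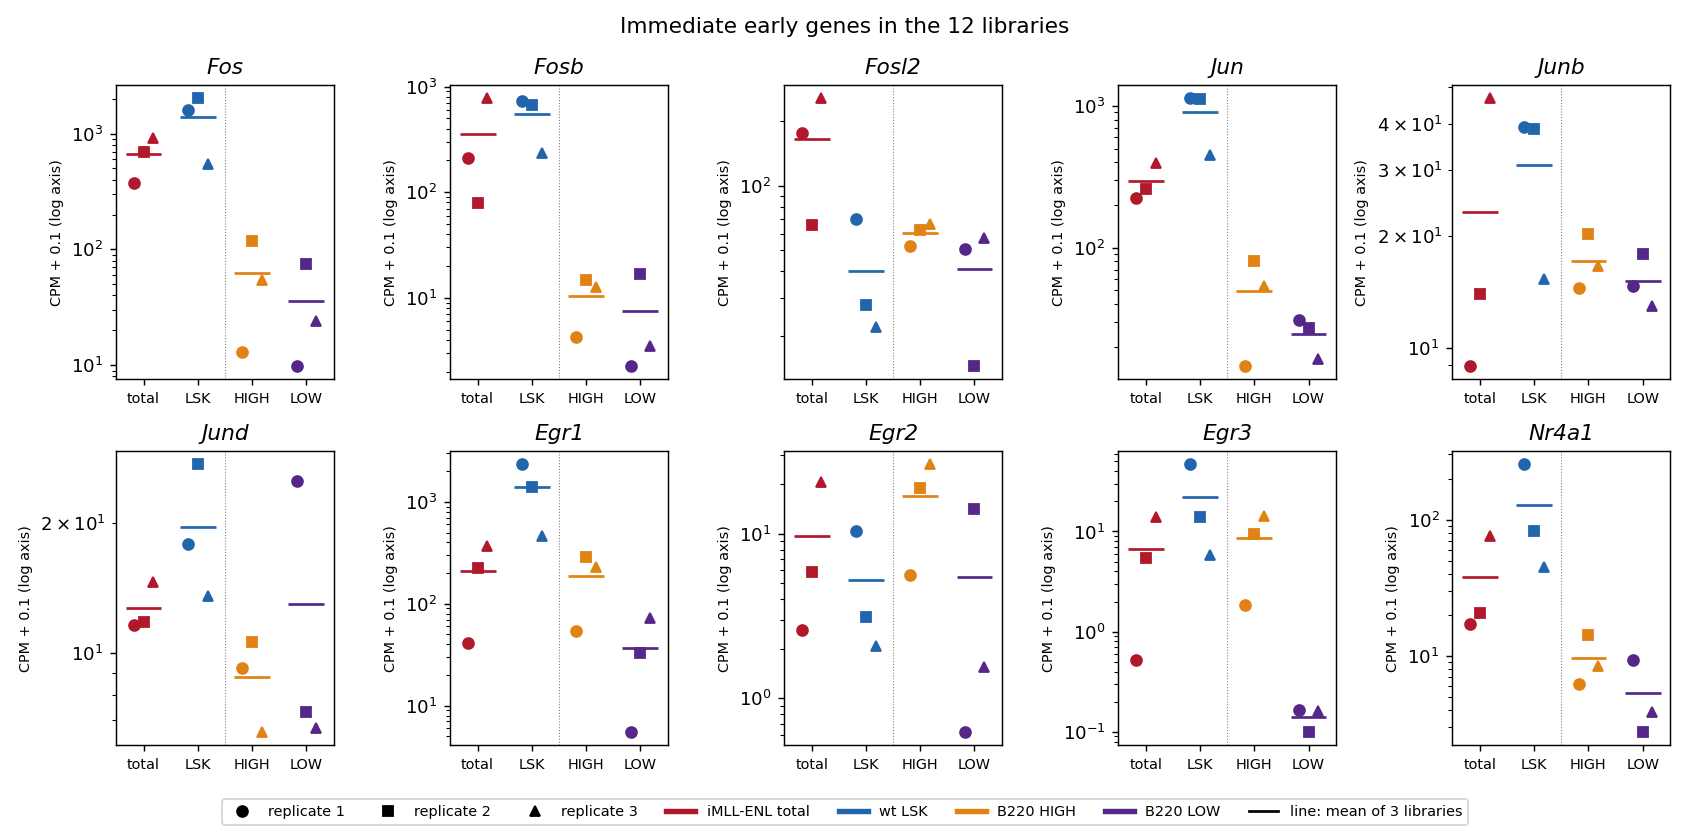
Levels of the 10 genes in CPM plus 0.1 on log axes, with one symbol per library, the symbol shape giving the replicate number and the line the mean of 3 libraries in each group. In iMLL-ENL total replicate 3 (red triangle) is the highest library of its group in all 10 panels, and in wt LSK replicate 3 (blue triangle) is the lowest.

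The first comparison set leukemic marrow against normal LSK cells. Of the 10 genes, Fosl2 rose and Jun fell in iMLL-ENL total, and the other 8 did not pass the test. Across the 13811 genes tested, edgeR's quasi-likelihood test called 30.6% at an adjusted p under 0.05, 15.5% higher and 15.1% lower, so 2 calls of 10 are not more than the share called over all genes. The calls numbered 4221, against 2658 without wt LSK replicate 1 and 2636 without wt LSK replicate 3. The fitted log2 fold changes of the 10 genes ran from -2.58 to 2.20, with 8 below 0 and a median of -0.68, against a median of 0.05 over all genes tested. In bulk libraries such as these, fewer cells of a type and less RNA per cell cannot be told apart.

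Fosl2 encodes Fra-2, a Fos protein without the strong transactivation domain of Fos itself. It was measured at 176, 65.8 and 256 CPM in iMLL-ENL total replicates 1 to 3, against 69.9, 27.6 and 21.9 CPM in wt LSK replicates 1 to 3. Replicates 1 and 3 of iMLL-ENL total lay above every wt LSK library, while replicate 2 lay just under wt LSK replicate 1, so the groups overlapped at that point. Its log2 fold change was 2.20 (SE 0.61, edgeR adjusted p = 0.0281). The call was lost without iMLL-ENL total replicate 3 (edgeR adjusted p = 0.0830), without wt LSK replicate 2 (0.0981) and without wt LSK replicate 3 (0.0938), with the log2 fold change still at 1.66 or above.

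Fos, the founding AP-1 partner, was at 371, 695 and 926 CPM in iMLL-ENL total and 1607, 2018 and 548 CPM in wt LSK. Fosb, a close relative of Fos with the same partners, was at 210, 79.7 and 775 CPM in iMLL-ENL total and 729, 677 and 234 CPM in wt LSK. For both genes, wt LSK replicates 1 and 2 were high and replicate 3 lay within the range of the leukemic libraries. The log2 fold changes were -0.90 for Fos (SE 0.50, edgeR adjusted p = 0.214) and -0.45 for Fosb (SE 0.78, edgeR adjusted p = 0.703). Without iMLL-ENL total replicate 3 the fitted difference of Fosb was -1.85 (edgeR adjusted p = 0.0618).

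Jun, the main partner of Fos in AP-1, was at 226, 261 and 398 CPM in iMLL-ENL total and 1132, 1116 and 451 CPM in wt LSK. All leukemic libraries lay below all LSK libraries, with wt LSK replicate 3 close above the highest leukemic one. The log2 fold change was -1.45 (SE 0.39, edgeR adjusted p = 0.0221). The call was lost without iMLL-ENL total replicate 1 (edgeR adjusted p = 0.0598) or 2 (0.0809) and without wt LSK replicate 1 (0.0815) or 2 (0.0674). Jun kept a log2 fold change of -1.26 or below in each of these.

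Junb, a Jun protein that can oppose Jun at some targets and is known as a brake on myeloid expansion in mice, was at 8.85, 13.8 and 46.6 CPM in iMLL-ENL total and 38.9, 38.6 and 15.3 CPM in wt LSK. Jund, the Jun family member that is least dependent on induction, was at 11.5, 11.7 and 14.5 CPM in iMLL-ENL total and 17.8, 27.3 and 13.5 CPM in wt LSK. The groups overlapped for both genes through replicate 3 of each group. The log2 fold changes were -0.25 for Junb (SE 0.65, edgeR adjusted p = 0.806) and -0.47 for Jund (SE 0.33, edgeR adjusted p = 0.323).

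Egr1 was at 41.3, 227 and 366 CPM in iMLL-ENL total and 2338, 1412 and 462 CPM in wt LSK. The groups did not overlap, and the spread within each was wide, with the highest leukemic library near the lowest LSK library. The log2 fold change of -2.58 (SE 0.84) was the lowest of the 10 genes and had an edgeR adjusted p of 0.0520, just outside the threshold. DESeq2 (adjusted p = 0.0293) and limma-voom (adjusted p = 0.0286) called Egr1 lower, and so did edgeR without iMLL-ENL total replicate 1 (adjusted p = 0.0430) or 3 (0.0424) or wt LSK replicate 3 (0.0416). Of the 10 genes, only Egr1 and Jun had leukemic and LSK libraries that did not overlap in CPM, both lower in leukemia. Of all genes tested, 48.5% did not overlap, 29.5% lower and 19% higher.

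Egr3, an Egr factor best known from lymphocytes and neurons, was at 0.417, 5.33 and 13.8 CPM in iMLL-ENL total and 46.8, 14 and 5.76 CPM in wt LSK. Egr2, known in the myeloid lineage as a factor that acts beside Egr1, was at 2.5, 5.78 and 20.7 CPM in iMLL-ENL total and 10.3, 3.02 and 1.99 CPM in wt LSK. Both overlapped between the groups, and the sign of their fitted differences was not the same, at -1.62 for Egr3 (SE 1.12, edgeR adjusted p = 0.318) and 1.06 for Egr2 (SE 0.89, edgeR adjusted p = 0.404). The Egr2 locus overlaps the annotated gene Gm32255, and the kit does not keep strand, so reads of the pair cannot be told apart.

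Nr4a1, also called Nur77, was at 17.1, 20.7 and 75.8 CPM in iMLL-ENL total and 254, 83.0 and 44.5 CPM in wt LSK. Replicates 1 and 2 of iMLL-ENL total lay below every wt LSK library, and replicate 3 lay between wt LSK replicates 2 and 3. The log2 fold change was -1.60 (SE 0.79, edgeR adjusted p = 0.168). Without iMLL-ENL total replicate 3 it was -2.70 (edgeR adjusted p = 0.0401), which passed the threshold.

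The same 2 libraries stood at the edge of their groups for the whole set. Replicate 3 of iMLL-ENL total was the highest of its group for 10 of 10 genes, as it was for 29% of all genes tested, and wt LSK replicate 3 was the lowest of its group for 10 of 10, as for 24.8% of all genes tested. The summed level of the 10 genes was 1065, 1386 and 2893 CPM in iMLL-ENL total and 6244, 5417 and 1798 CPM in wt LSK. Along with it, the marker lists of several cell types differed between the groups. The 10 monocyte and macrophage markers listed summed to 2932, 3379 and 10413 CPM in iMLL-ENL total and 213, 491 and 248 CPM in wt LSK, and 8 of 9 tested rose. The 12 neutrophil markers summed to 7125, 26397 and 17996 CPM in iMLL-ENL total, highest in replicate 2, and 1394, 2322 and 1673 CPM in wt LSK, and 10 of 12 rose. Of the LSK markers 9 of 9 fell, and of the erythroid and megakaryocyte markers 7 of 9 fell and 1 rose. Over all genes tested, 15.5% were called higher and 15.1% lower. The 14 heat shock and handling stress genes listed summed to 4215, 4288 and 3569 CPM in iMLL-ENL total and 5678, 4677 and 3761 CPM in wt LSK. The part of any of these in the levels of the immediate early genes was not tested.

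**Figure D3:**
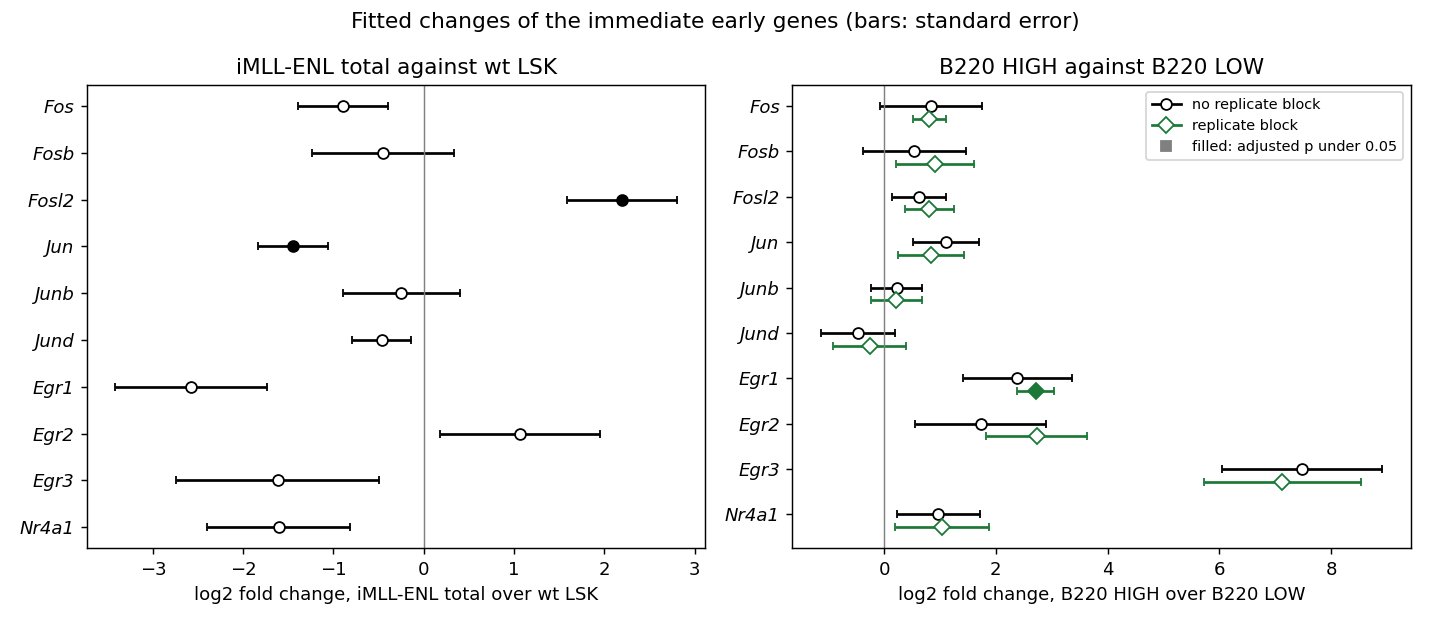
Fitted log2 fold changes of the 10 genes with standard errors, iMLL-ENL total over wt LSK on the left and B220 HIGH over B220 LOW on the right, from edgeR. Filled symbols passed an adjusted p of 0.05, which held for Fosl2 and Jun on the left and, in the fit with a replicate block (diamonds), for Egr1 on the right.

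Of 92 tested genes on the other immediate early, AP-1, Egr, MAPK and stress lists, 12 rose and 14 fell, 26 in all, which is no larger a share than the 30.6% called over all genes tested (15.5% higher, 15.1% lower). Of the other AP-1 and ATF genes, 2 of 10 tested rose and none fell: Jdp2, a repressor that binds AP-1 sites (log2 fold change 1.38, edgeR adjusted p = 0.00681), and Mafg, a small Maf protein (1.41, edgeR adjusted p = 0.0123). Of 4 tested relatives and co-repressors of the Egr and Nr4a genes, only Nr4a2 changed. This sister receptor of Nr4a1 was at 4.12, 5.39 and 5.73 CPM in iMLL-ENL total and 112, 31.6 and 23.7 CPM in wt LSK, with no overlap. Its log2 fold change was -3.33 (SE 0.63, edgeR adjusted p = 0.00533). The annotation places LOC105244150 over Nr4a2 and Gm17586 over Mafg, so both counts are uncertain to that extent.

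Among 26 other immediate early genes tested, 2 rose and 3 fell, against 15.5% called higher and 15.1% lower over all genes tested. The mRNA decay factors Zfp36l2 and Zfp36l1 fell by 1.33 and 2.55 on the log2 scale (edgeR adjusted p = 0.00213 and 0.00421), as did the cytokine signalling inhibitor Socs3, by 2.79 (0.0226). Gadd45b, a stress-inducible regulator of MAP kinase signalling, rose with a log2 fold change of 2.27 (edgeR adjusted p = 0.00617). The fifth called gene was Arc (2.77, edgeR adjusted p = 0.0228), named because it completes the count.

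Of 14 MAPK phosphatase and feedback genes tested, 1 rose and 4 fell, where 15.5% of all genes tested were called higher and 15.1% lower. Errfi1, an inhibitor of EGF receptor signalling, rose (log2 fold change 2.24, edgeR adjusted p = 0.00681), while Spry1 and Spred1, inhibitors of the Ras and ERK pathway, fell by 3.84 and 1.06 (edgeR adjusted p = 0.0200 and 0.0381), and Dusp16, a phosphatase of JNK and p38, fell by 1.93 (0.0319). Of the 25 upstream kinases and SRF, ELK and CREB factors tested, 6 rose and 5 fell, a larger share than over all genes tested. Elk3 and the kinase Rps6ka3 fell by 1.76 and 1.06 (edgeR adjusted p = 0.000249 and 0.00335), and Rps6ka1 and Mapk3, which encodes ERK1, rose with log2 fold changes of 1.76 and 1.52 (edgeR adjusted p = 0.000377 and 0.00160). Of 13 heat shock and stress genes tested, Bag3 rose (0.97, edgeR adjusted p = 0.0324) and Dnajb1 fell by 1.14 (0.0126). Errfi1, Dusp16, Elk3 and Rps6ka1 each overlap another annotated gene.

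The second comparison set the leukemic fractions with high and low B220 against each other. Without regard to the replicate numbers, none of the 12564 genes tested passed edgeR's adjusted p of 0.05 (0%), 880 had an unadjusted p under 0.05, DESeq2 called 232 genes and limma-voom called 0. The edgeR test called 96 genes without B220 HIGH replicate 1 and 3 without B220 LOW replicate 1. None of the 10 immediate early genes was called by edgeR, and 2 of them, Egr1 and Egr3, had an unadjusted p under 0.05. The fitted log2 fold changes ran from -0.47 to 7.48, with 9 above 0 and a median of 0.91, against -0.03 over all genes tested. Libraries of B220 HIGH and B220 LOW with the same number deviated together from their group means and were treated as pairs. A fit with that number as a block called 0.629% of genes, 0.581% higher and 0.0478% lower, and 1 of the 10, Egr1.

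Egr1 was at 53.5, 285 and 229 CPM in B220 HIGH replicates 1 to 3, against 5.43, 33.1 and 72.7 CPM in B220 LOW replicates 1 to 3. B220 HIGH was higher in every pair, by 3.08, 3.07 and 1.64 on the log2(CPM + 1) scale for numbers 1, 2 and 3, although B220 HIGH replicate 1 lay below B220 LOW replicate 3. With the replicate block the log2 fold change was 2.72 (SE 0.33, edgeR adjusted p = 0.0108), and without it 2.38 (SE 0.98, edgeR adjusted p = 0.693).

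Egr3 was nearly absent from B220 LOW. It had 19, 188 and 280 counts in B220 HIGH, or 1.74, 9.37 and 14.2 CPM, against 1, 0 and 1 counts in B220 LOW, or at most 0.0655 CPM. The groups did not overlap, and the ratio of the pooled levels was 217, with a 95% interval of 59.9 to 1801 that covers counting error only. The fitted log2 fold change of 7.48 (SE 1.43) depends on the prior count at such a low level and had an edgeR adjusted p of 0.200. The adjusted p of Egr3 was 0.0772 in edgeR with the replicate block, 4.68e-05 in DESeq2 and 0.0370 in edgeR without B220 HIGH replicate 1. Of the 10 genes only Egr3 had B220 HIGH libraries that all lay above all B220 LOW libraries, against 6.2% of all genes tested, and 7.22% of genes tested lay the opposite way.

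Egr2 was at 5.49, 18.9 and 26.3 CPM in B220 HIGH and 0.524, 14.1 and 1.44 CPM in B220 LOW. It was higher in each pair, by 2.09, 0.40 and 3.48 on the log2(CPM + 1) scale, with B220 LOW replicate 2 reaching into the B220 HIGH range. The log2 fold change was 1.73 (SE 1.17, edgeR adjusted p = 0.859), or 2.73 with the replicate block (SE 0.90, edgeR adjusted p = 0.279), so no Egr2 call was made.

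Fos was at 13, 119 and 54.8 CPM in B220 HIGH and 9.76, 74.3 and 24.1 CPM in B220 LOW. The replicate number separated these libraries more than the B220 level did, with number 1 lowest and number 2 highest in both fractions. Fos was higher in B220 HIGH in each pair, by 0.38, 0.67 and 1.15 on the log2(CPM + 1) scale, and the fitted log2 fold change was 0.84 without the block (SE 0.91, edgeR adjusted p = 0.926) and 0.81 with it (SE 0.30, edgeR adjusted p = 0.325).

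Fosb was at 4.12, 14.6 and 12.5 CPM in B220 HIGH and 2.16, 16.8 and 3.37 CPM in B220 LOW, with pair 2 running against the other pairs. Fosl2 was at 52.3, 62.3 and 66.5 CPM in B220 HIGH and 50.5, 14.4 and 57.1 CPM in B220 LOW, where only B220 LOW replicate 2 was far from the rest. Neither Fosb nor Fosl2 passed edgeR's test, with log2 fold changes of 0.54 (SE 0.93, edgeR adjusted p = 0.959) and 0.63 (SE 0.48, edgeR adjusted p = 0.873).

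Jun was at 14.6, 80.4 and 53.4 CPM in B220 HIGH and 30.6, 27.2 and 16.3 CPM in B220 LOW, so it was higher in B220 HIGH in pairs 2 and 3 and lower in pair 1. Junb was at 14.4, 20.1 and 16.5 CPM in B220 HIGH and 14.5, 17.8 and 12.9 CPM in B220 LOW, the narrowest range of the 10 genes over the fractions by ratio of highest to lowest library. Jund was at 9.16, 10.5 and 6.47 CPM in B220 HIGH and 24.9, 7.22 and 6.62 CPM in B220 LOW, where the single high library was B220 LOW replicate 1. The log2 fold changes were 1.11 for Jun (SE 0.59, edgeR adjusted p = 0.790), 0.23 for Junb (SE 0.46, edgeR adjusted p = 0.968) and -0.47 for Jund (SE 0.66, edgeR adjusted p = 0.940), and Jund turned to 0.31 without B220 LOW replicate 1.

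Nr4a1 was at 6.13, 14 and 8.34 CPM in B220 HIGH and 9.23, 2.68 and 3.79 CPM in B220 LOW, again with pair 1 opposite to the other pairs. Its log2 fold change was 0.97 (SE 0.74, edgeR adjusted p = 0.873). In all, 5 of the 10 genes (Fos, Fosl2, Egr1, Egr2 and Egr3) were higher in B220 HIGH in all 3 pairs, against 16.1% of all genes tested, and none was lower in all 3 pairs, against 20.9%.

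**Figure D4:**
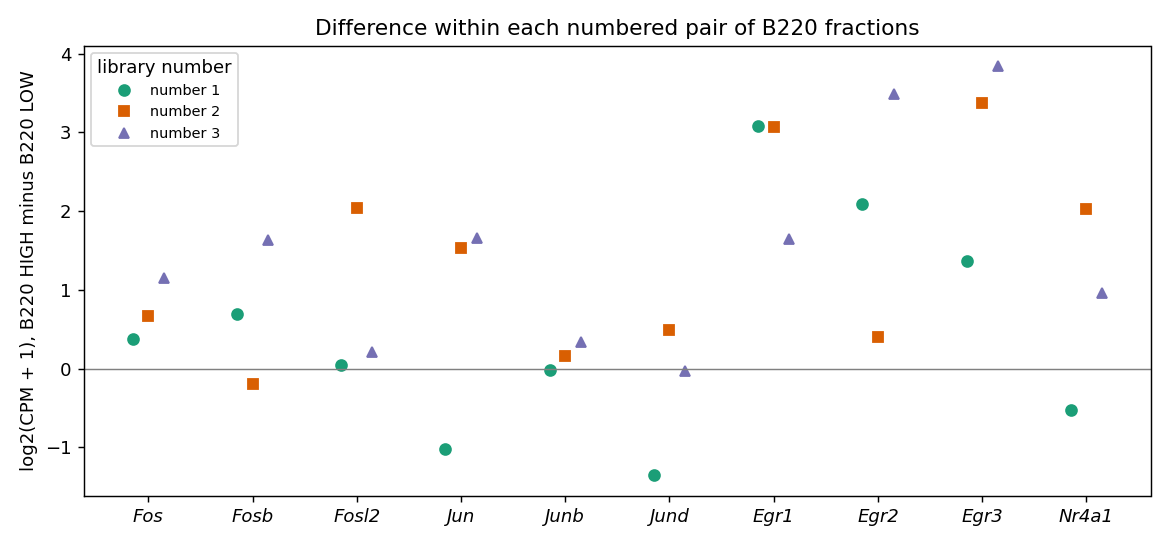
Difference in log2(CPM + 1), B220 HIGH minus B220 LOW, for each of the 10 genes in the 3 pairs of libraries with the same number. Egr1, Egr2 and Egr3 lie above 0 in all pairs, while Jun and Nr4a1 lie below 0 in pair 1 only, at -1.02 and -0.52.

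B220 HIGH replicate 1, which also had the smallest total, was the lowest of its group for 9 of the 10 genes, all but Jund, as for 29.1% of all genes tested. The summed level of the 10 genes was 174, 634 and 488 CPM in B220 HIGH and 148, 208 and 198 CPM in B220 LOW. The monocyte and macrophage markers summed to 999, 3162 and 5566 CPM in B220 HIGH and 573, 676 and 1096 CPM in B220 LOW, and the 12 neutrophil markers to 634, 16274 and 5082 CPM in B220 HIGH and 2262, 8216 and 6881 CPM in B220 LOW. With the replicate block, 2 of 9 monocyte and macrophage markers tested, Adgre1 and Cd14, were called higher (log2 fold changes 2.70 and 2.61, edgeR adjusted p = 0.0313 and 0.0482), and 3 of 12 neutrophil markers, Elane, Mpo and Ctsg of early neutrophil granules, were called lower, against 0.581% of all genes called higher and 0.0478% called lower. The neutrophil list did not move as one, with 6 markers fitted above 0 and 6 below, and Mmp8 of later granules was higher in B220 HIGH in all 3 pairs, by 1.25, 4.77 and 3.09 on the log2(CPM + 1) scale. The LSK markers summed to 209, 381 and 319 CPM in B220 HIGH and 109, 93.6 and 100 CPM in B220 LOW, with no overlap, and 0 of 8 tested were called. This list did not move as one either, with 7 markers fitted above 0 and 1 below with the block. Kit was lower in B220 HIGH in each pair, with differences of -0.34, -0.60 and -0.35 on the log2(CPM + 1) scale. The marrow stroma and endothelium markers summed to 173, 83.5 and 125 CPM in B220 HIGH and 87.1, 63.5 and 64.2 CPM in B220 LOW. Their sum was higher in each pair, and 0 of 3 tested were called. With the block, 2 of these 3 markers were fitted above 0 and 1 below, so they did not move as one. The B lineage markers summed to 11, 87.0 and 20.7 CPM in B220 HIGH and 7.27, 15.1 and 9.20 CPM in B220 LOW, with Pax5, Igll1 and Rag1 at 0 in all B220 LOW libraries. The plasmacytoid dendritic cell markers summed to 228, 588 and 414 CPM in B220 HIGH and 238, 185 and 339 CPM in B220 LOW. The erythroid and megakaryocyte markers summed to 467, 588 and 277 CPM in B220 HIGH and 453, 426 and 281 CPM in B220 LOW. Neither sum was higher in B220 HIGH in every pair, and no gene of either list was called. Siglech, Pf4 and Itga2b were higher in all 3 pairs, while Ccr9, Cox6a2, Klf1, Car2 and Tfrc were mixed. The part of these markers in the Egr levels was not tested. Of the 87 genes tested on the other immediate early, AP-1, Egr, MAPK and stress lists, none was called by edgeR with or without the block.

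The fractions and the total leukemic marrow stand in separate tables, so their levels are set side by side with no test. Fos averaged 62.2 ± 53.3 CPM in B220 HIGH, 36.0 ± 33.9 CPM in B220 LOW and 664 ± 279 CPM in iMLL-ENL total (SD, n = 3 each). All 6 sorted libraries lay below all 3 libraries of total leukemic marrow for Fos, Fosb, Jun and Nr4a1, which is 4 of the 10 genes, against 8.67% of 12240 genes that lay this way and 11.9% that lay the opposite way. The mean of B220 HIGH was 0.0937 of that of iMLL-ENL total for Fos, 0.0293 for Fosb, 0.168 for Jun and 0.251 for Nr4a1, and the mean of B220 LOW was 0.0543, 0.0210, 0.0838 and 0.138 of it for the same genes in that order. The other 6 genes did not lie this way. Their mean in B220 HIGH was 0.363 of that in iMLL-ENL total for Fosl2, 0.735 for Junb, 0.692 for Jund, 0.894 for Egr1, 1.75 for Egr2 and 1.29 for Egr3. In B220 LOW it was 0.245 for Fosl2, 0.652 for Junb, 1.03 for Jund, 0.175 for Egr1, 0.554 for Egr2 and 0.00642 for Egr3. The heat shock and handling stress genes summed to 5430 to 6347 CPM in B220 HIGH, 6030 to 7453 CPM in B220 LOW and 3569 to 4288 CPM in iMLL-ENL total. How the sort and the processing of each table bear on these levels was not tested.

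Over the 12 libraries the genes did not all follow one course. As a measure of likeness, log2(CPM + 1) was centred for each gene and the root mean square difference between 2 genes was taken, where 0 would mean the same course. The closest were Junb and Jund at 0.66, Fos and Jun at 0.78, Fos and Fosb at 0.81 and Jun and Nr4a1 at 0.81, and the farthest were Fosb and Egr2 at 2.99. This order rests on the differences between tables and groups: with each group's own mean removed, Fosb and Egr2 were among the closer pairs at 0.62, and Junb and Jund were at 0.63. Junb and Jund both varied less over the libraries than Fos, Fosb and Jun, which were all high in the first table and low in the fractions. The libraries share table, depth and possibly animals, so these are descriptions.

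Of 9469 other genes with a mean of at least 10 CPM, those most like Fos were Dusp1 at 0.79, Zfp36 at 0.91, Ipcef1 at 1.07, Btg2 at 1.08 and Gm7694 at 1.09. Dusp1 encodes a MAP kinase phosphatase, Zfp36 the mRNA decay factor tristetraprolin and Btg2 an antiproliferative protein, and all 3 are themselves immediate early genes. Dusp1 was at 574, 312 and 1000 CPM in iMLL-ENL total and 734, 798 and 380 CPM in wt LSK, with iMLL-ENL total replicate 3 again the highest and wt LSK replicate 3 the lowest of their groups. In the fractions Dusp1 was at 20.5, 75.9 and 60.4 CPM in B220 HIGH and 25.3, 42.3 and 25.3 CPM in B220 LOW.

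**Figure D5:**
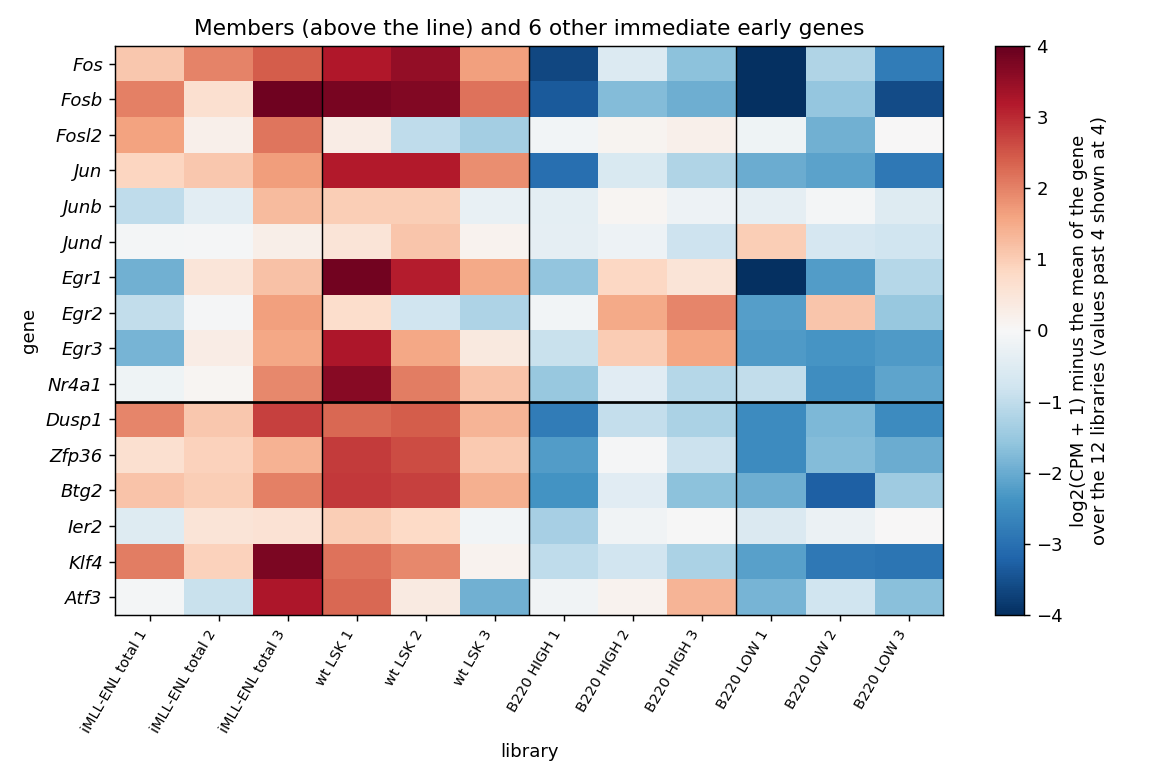
Centred log2(CPM + 1) of the 10 genes (above the line) and of 6 other immediate early genes in the 12 libraries, red above and blue below the gene's own mean. Fos, Fosb and Jun are red in all libraries of iMLL-ENL total and wt LSK and blue in all B220 fractions, while Egr1 and Egr3 are red in B220 HIGH replicates 2 and 3.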

How the data were processed

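Bone marrow RNA of 12 libraries was isolated with a PicoPure kit and sequenced from NuGen Ovation libraries that keep no strand, per the labels' protocols. The authors deposited raw read counts per gene in 2 tables, one with iMLL-ENL total and wt LSK and one with B220 HIGH and B220 LOW, each with a gene width in bases (unit: other), which was used for levels per kilobase. The submitters' processing notes name edgeR, GRCm38 and mm10. The aligner, like the read counter, is not given in the sources used here. The deposited CPM tables were not used. Gene IDs were matched to RefSeq symbols for 23968 of 24028 genes.

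Each comparison was fitted within its own table with edgeR 4.0.16 in R 4.3.3 (TMM factors, filterByExpr at a minimum count of 10, robust quasi-likelihood F test, two-sided, Benjamini-Hochberg over all genes tested, calls at an adjusted p under 0.05). DESeq2 1.42.0 and limma 3.58.1 (voom) were alternatives, beside other scalings, filters, a fold change of at least 2, a replicate block, all libraries in 1 fit and leaving out each library. The fit was tested on simulated data. CPM are over the library total, which ran from 10921521 to 22706882 counts, and the interval of the Egr3 ratio is an exact binomial one that covers counting error only. No libraries of a group agreed within sampling noise. In the deviations from group means, same-numbered B220 HIGH and B220 LOW libraries correlated across genes at 0.445, 0.219 and 0.341. Each exceeds 0.1, and on this basis alone, since the labels are silent, the libraries were treated as pairs. B220 HIGH and B220 LOW libraries of unlike number correlated at 0.069 or below. The 0.219 of number 2 was no higher than the 0.224 of number 2 in iMLL-ENL total and wt LSK, which were not treated as pairs. The pairing is therefore an assumption, and the Egr1 call with the replicate block rests on it.

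The genes, lists, markers and tests were chosen with earlier results of these data known. Named were the 10 genes, up to 4 called genes of each other list by smallest p, the 5 genes most like Fos, and Kit, Ly6a and Ptprc. Other genes were named after their values were seen, as were the marker lists set beside a result.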

Additional observations from a re-analysis of the deposited data

How the results depend on the processing

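In iMLL-ENL total against wt LSK, 4221 genes were called, 2411 with all 12 libraries in one fit, 2047 for a fold change of at least 2, and 2636 to 4528 with 1 library left out. The immediate early genes called numbered 2, against 1 in the fit of all 12 libraries, 1 with no filter on low counts (Fosl2 lost), 0 for a fold change of at least 2, and 0 to 3 with 1 library left out (3 without iMLL-ENL total replicate 3, 0 without wt LSK replicate 2). The other listed genes called numbered 26, against 8 for a fold change of at least 2 and 17 to 29 with 1 library left out, the 17 without wt LSK replicate 1. The replicate numbers did not pair these libraries (correlations 0.032, 0.224 and -0.037), and the replicate block left 0 of the 10 genes called, with Fosl2 at an adjusted p of 0.0502 and Jun at 0.117. Scaling by library totals moved the median of all genes to -0.10 from 0.05 and changed the sign of none of the 10 genes, with Egr1 then called at an adjusted p of 0.0445. With 1 library left out, the log2 fold change ran from -1.85 to 0.030 for Fosb, above 0 without iMLL-ENL total replicate 2, from -1.37 to 0.16 for Junb, above 0 without iMLL-ENL total replicate 1 or 2, and from -0.25 to 2.11 for Egr2, below 0 without iMLL-ENL total replicate 3.

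In B220 HIGH against B220 LOW, edgeR called 0 genes, against 79 with the replicate block, 232 in DESeq2, 31 in the fit of all 12 libraries, 22 with no filter, 4 with at least 10 CPM in 3 libraries, and 0 to 96 with 1 library left out, the 96 without B220 HIGH replicate 1. The immediate early genes called numbered 0, against 1 in DESeq2 (Egr3), 1 with the block (Egr1) and 0 to 1 with 1 library left out. The other listed genes called numbered 0, against 1 in DESeq2 and 0 to 1 with 1 library left out, in both cases Klf6. Jund ran from -0.74 to 0.31, above 0 without B220 LOW replicate 1. The cause of these shifts was not tested beyond the fewer libraries or genes that the settings themselves use. Of the 10 genes, Egr3 rested on the fewest counts in B220 LOW, with 2 in all, so its fitted fold change depends on the prior count.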

Other observations

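Klf6, Atf3 and Dusp6, chosen here after their values were seen, were higher in B220 HIGH in all 3 pairs, as were 16.1% of all genes tested. Other genes of the same lists went the opposite way. Myc, Pim1, Batf, Dusp10 and Spred2, among others, were lower in B220 HIGH in all 3 pairs, as were 20.9% of all genes tested. Klf6, a zinc finger factor, was at 142, 338 and 347 CPM in B220 HIGH and 85.0, 62.9 and 92.6 CPM in B220 LOW. Its groups did not overlap, as for 6.2% of all genes tested that lay this way. Klf6 had an edgeR adjusted p of 0.288 without the replicate block and 0.0696 with it. Atf3, a stress-inducible bZIP factor, was at 10.1, 12.5 and 30.3 CPM in B220 HIGH and 2.42, 6.10 and 2.89 CPM in B220 LOW (edgeR adjusted p = 0.513, and 0.258 with the block). Dusp6, an ERK phosphatase, was at 74.5, 105 and 213 CPM in B220 HIGH and 34.2, 51.8 and 81.3 CPM in B220 LOW (edgeR adjusted p = 0.665, and 0.0517 with the block). Dusp6 overlaps the annotated gene Gm34921.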
